A study of Mus musculus with 6 samples.

Results

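Plasma membrane amino acid transporters supply growing cells with the building blocks of protein. Day 3 in vitro germinal center B cells (iGCBs) expressed 9 of the 10 transporter genes described here well above the detection floor, and 3 of them, Slc7a3, Slc1a4 and Slc38a2, were over 1.5-fold lower in cKO cells, in which Eif3e is deleted. The 10 genes were the rows of the gene count table, out of 24499, with the symbols Slc7a5, Slc3a2, Slc7a1, Slc7a6, Slc7a3, Slc7a11, Slc1a4, Slc1a5, Slc38a1 and Slc38a2. All 10 passed the filter on low counts, as did 13296 genes in all.

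Slc3a2 encodes a heavy chain that carries a light chain, such as those encoded by Slc7a5, Slc7a6 or Slc7a11, to the cell surface. Other carriers work without it: those of Slc7a1 and Slc7a3 move arginine and lysine, those of Slc1a4 and Slc1a5 exchange small neutral amino acids, and those of Slc38a1 and Slc38a2 bring in glutamine with sodium. Activated lymphocytes raise several of these carriers, and when amino acids run short the transcription factor ATF4 is known to raise the RNA of several of them.

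The cKO mice were Eif3e fl/fl Cγ1Cre Rosa26-YFP LSL on a C57BL/6J background, in which Cre is switched on in activated B cells with transcription of the Ig γ1 constant region and also turns on the YFP reporter. The labels give the other group as control, with cgWT in its library names, and do not spell out its alleles. The study elsewhere uses Cγ1Cre Rosa26-YFP LSL mice as control, and YFP+ cells were sorted from both groups. Naïve splenic B cells of 3 cKO and 3 control mice were grown for 3 days on 40LB cells, a BALB/c 3T3 fibroblast line that makes CD40L and BAFF and had been irradiated with 120 Gy, with IL-4 at 1 ng/ml and a supplement of non-essential amino acids in the medium. Another protocol text gives 4 days for the culture, and the labels give neither age nor sex.

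Libraries held 39079582 to 45504570 estimated counts, so that 3 counts, used as the detection floor, corresponded to 0.0661 to 0.0763 CPM (counts scaled to the TMM-adjusted library size). The deleted gene Eif3e fell from 406 ± 16.5 to 158 ± 13.1 CPM (SD, n = 3 each), to 39.0% of control (log2 fold change −1.36, adjusted p = 6.71e-07). B cell markers were abundant, at a sum of 4742 ± 91.0 CPM in cKO and 4671 ± 172 CPM in control libraries for 7 genes. Of 6 markers of germinal center B cells, 4 were lower and 1 was higher at an adjusted p under 0.05, beside 24.5% and 24.1% of all tested genes. Gcsam (log2 fold change −2.75) and Mef2b (−1.67) were called lower. Fas was the higher one (0.41, adjusted p = 0.00036), and S1pr2 had an adjusted p of 0.160. Of 5 plasma cell markers, Jchain (log2 fold change −4.00), Prdm1 (−1.13) and Xbp1 (−1.10) were called lower and Sdc1 (1.60) higher, so the groups also differed in differentiation markers, whose part in the results below was not tested. Markers of the fibroblast feeders summed to 111 to 136 CPM in cKO and 80.2 to 148 CPM in control libraries over 15 genes, 3 of which (Fn1, Col5a1 and Fbn1) were higher in cKO, with Lum and Postn at 0. T cell markers summed to 1.69 to 2.07 against 2.33 to 4.63 CPM, with Cd3e at 0, and myeloid markers to 4.08 to 6.06 against 1.22 to 2.45 CPM, with Cd14 at 0. A single gene carried each of these sums, Cd28 for T cells and Adgre1 for myeloid cells. Without them, the other 5 markers summed to at most 0.330 and 0.355 CPM for T cells, and to at most 0.667 and 0.611 CPM for myeloid cells, in cKO and control libraries. Xist was high in cKO replicate 2 and control replicates 1 and 2 only, and Y-linked genes in the other libraries only, so both groups mixed sexes. In these bulk samples, fewer cells that express a gene and less RNA per cell cannot be told apart.

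The promoters shown next are those of the called members with a RefSeq entry, Slc1a4 and Slc38a2, and of Slc7a11, the member with the lowest level. Each runs from 130 bases before to 20 bases after the start of transcription, 5′ to 3′ on GRCm38.p6, with capitals for motif matches.
Slc1a4, chr11:20332694-20332843, minus strand: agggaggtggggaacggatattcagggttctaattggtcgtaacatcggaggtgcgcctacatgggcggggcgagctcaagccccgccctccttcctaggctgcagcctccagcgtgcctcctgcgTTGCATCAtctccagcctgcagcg
Slc38a2, chr15:96699709-96699858, minus strand: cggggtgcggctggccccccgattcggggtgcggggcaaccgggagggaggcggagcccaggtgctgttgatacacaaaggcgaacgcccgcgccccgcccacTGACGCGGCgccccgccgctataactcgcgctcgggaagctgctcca
Slc7a11, chr3:50443594-50443743, minus strand: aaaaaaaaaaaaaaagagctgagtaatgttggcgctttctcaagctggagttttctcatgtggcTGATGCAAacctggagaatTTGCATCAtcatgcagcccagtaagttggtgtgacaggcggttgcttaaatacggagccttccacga
The motifs searched on both strands were the CARE core TGATGNAA, part of the element that ATF4 binds with C/EBP partners, the ARE core TGACNNNGC, a site for NRF2, and the E-box CACGTG, a site for MYC. In windows of 300 bases, from 250 before to 50 after the start, Slc1a4 had 1 CARE core on the opposite strand starting at position −4, and Slc7a11 had one on each strand, at −66 and −47. Slc38a2 had an ARE core at −27, and Slc7a1 and Slc7a6 had one each near a start. None of the 6 members with an entry held the E-box. Of all 32851 promoters of that length, 3.97% held the CARE core, 12.4% the ARE core and 7.15% the E-box, and counted per gene these shares were 4.51%, 13.99% and 8.09%. The same table listed CARE cores for 5 of 17 genes of the amino acid response (Atf3, Trib3, Chac1, Asns and Nupr1). A match is only a match of letters and does not show a bound site.

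A gene was called when the adjusted p of edgeR's quasi-likelihood test was under 0.05 and the fold change was over 1.5. By this rule 3 of the 10 members were lower and 0 were higher in cKO, beside 21.0% of all tested genes called in either direction (10.6% lower and 10.4% higher). The test alone, without the fold cutoff, took in 5 lower members (Slc3a2 and Slc7a1 as well) and 2 higher members, Slc7a6 and Slc1a5, beside 48.6% of all tested genes. In 8 members every cKO library lay on one side of every control library, beside 58.7% of all tested genes. The members' median log2 fold change was −0.38, beside −0.0040 for all tested genes. Summed over the members, CPM were 1790, 1991 and 1827 in cKO and 2156, 2138 and 2169 in control libraries.

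**Figure D1:**
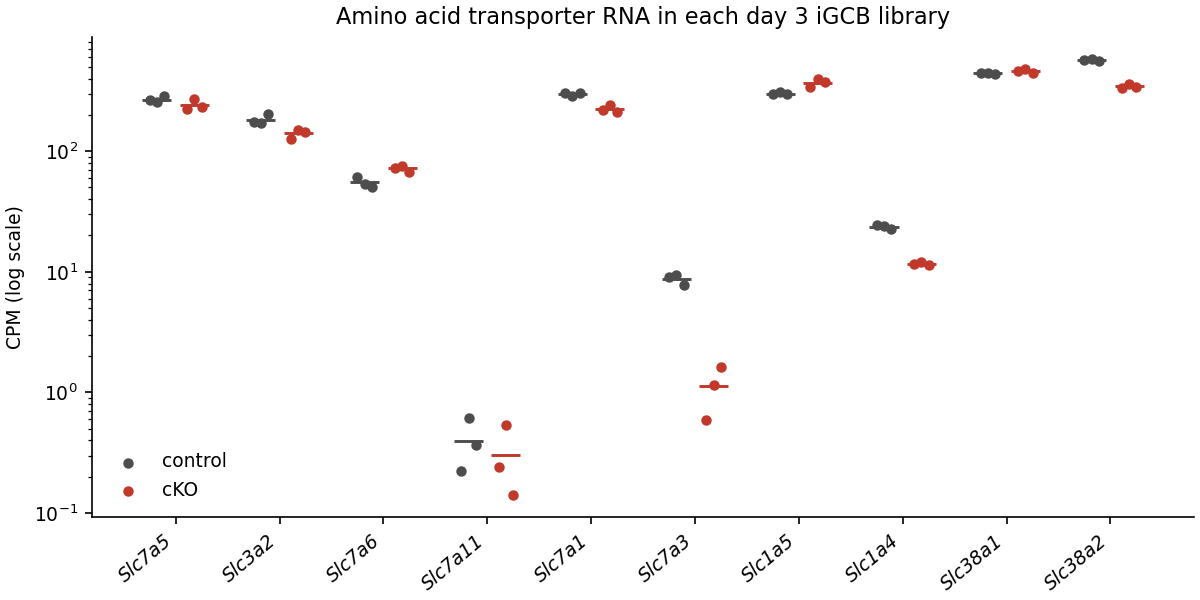
CPM of each transporter on a log scale, 1 point per library, with the group mean as a line. Slc7a3 and Slc1a4 show the widest gaps between cKO and control points, and Slc7a11 lies lowest with overlapping points.

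Among the carriers built on the heavy chain, Slc3a2 fell, Slc7a6 rose, and Slc7a5 and Slc7a11 did not pass the test. Slc3a2 (chromosome 19: 8706882 to 8723369, minus strand, GRCm38) stood at 126.1, 150.3 and 144.6 CPM in cKO replicates 1, 2 and 3, and at 176, 170.0 and 202 CPM in control replicates 1, 2 and 3. Every cKO library lay under every control library, a log2 fold change of −0.38 (SE 0.0822, adjusted p = 0.00325). Slc7a5, the light chain that brings in leucine and other large neutral amino acids (chromosome 8: 121881150 to 121907694, minus strand), measured 224, 273 and 231 CPM in cKO and 263, 256 and 285 CPM in control libraries. These libraries overlapped, and the log2 fold change of −0.14 (95% interval −0.32 to 0.03, adjusted p = 0.153) did not pass the test. Without cKO replicate 2, the highest cKO library, it was −0.24 with an adjusted p of 0.0158. Leaving out any other single library gave −0.18 to −0.09, with adjusted p from 0.117 to 0.428.

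Slc7a6, the light chain that exchanges arginine for neutral amino acids (chromosome 8: 106168857 to 106198706, plus strand), rose. Its libraries held 72.8, 75.8 and 67.4 CPM in cKO and 61.2, 53.8 and 50.6 CPM in control. They did not overlap, with a log2 fold change of 0.38 (SE 0.0809, adjusted p = 0.0029). Slc7a11, the cystine and glutamate exchanger (chromosome 3: 49892526 to 50443614, minus strand), was barely present, with 11, 24 and 6 counts in cKO and 10, 24 and 15 counts in control libraries. Its interval ran from −1.90 to 1.16 on the log2 scale (adjusted p = 0.690), so a change of either sign was not detectable at this depth.

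Per length, the summed light chains over the heavy chain came to 1.22, 1.21 and 1.10 in cKO and 1.01, 0.952 and 0.875 in control libraries. The balance was thus higher in each cKO library than in each control library. On the log2 scale of the CPM, Slc3a2 over Slc7a5 differed by −0.23 and Slc3a2 over Slc7a6 by −0.77 between cKO and control. For both the exact permutation test gave p = 0.1, the smallest it can give with 3 against 3, and 0.12 after adjustment over 6 ratios. Slc3a2 over Slc7a11 overlapped between groups (exact p = 0.9).

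The arginine and lysine carriers fell together but by unequal amounts. Slc7a1, the general cationic carrier (chromosome 5: 148327410 to 148399904, minus strand), stood at 219.5, 243 and 212 CPM in cKO and 304, 286 and 304 CPM in control libraries. There was no overlap, with a log2 fold change of −0.41 (SE 0.0600, adjusted p = 0.000317). Slc7a3, a related carrier best known from brain (chromosome X: 101079210 to 101086020, minus strand), had 27, 52 and 69 counts in cKO and 412, 369 and 318 counts in control libraries. That is 1.13 ± 0.516 against 8.75 ± 0.896 CPM (SD, n = 3 each), 7.78-fold lower with a log2 fold change of −2.96 (SE 0.301, adjusted p = 3.02e-05). Only 34 of the 13296 tested genes had a lower log2 fold change. Slc7a3 is X-linked, and with the Xist level as a covariate its log2 fold change was −2.89.

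The 2 carriers of small neutral amino acids moved in opposite directions. Slc1a4 (chromosome 11: 20302180 to 20332713, minus strand), which carries alanine, serine and cysteine, held 11.6, 12.0 and 11.4 CPM in cKO and 24.3, 24.0 and 22.5 CPM in control libraries. The groups lay far apart for their spread, with cKO 2.02-fold lower (log2 fold change −1.02, SE 0.0939, adjusted p = 1.67e-05). Slc1a5, the main glutamine exchanger of many dividing cells (chromosome 7: 16781340 to 16798274, plus strand), held 339, 396 and 371 CPM in cKO and 295, 308 and 298 CPM in control libraries. It was higher in every cKO library, with a log2 fold change of 0.30 (SE 0.0607, adjusted p = 0.00242). Slc1a4 over Slc1a5 differed by −1.31 on the log2 scale (exact p = 0.1).

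Of the sodium-coupled glutamine carriers, whose genes are neighbours on chromosome 15, Slc38a2 fell and Slc38a1 did not pass the test. Slc38a2 (96687392 to 96699730, minus strand), known to rise in amino acid shortage, held 333, 359 and 341 CPM in cKO and 575, 586 and 561 CPM in control libraries. It was 1.67-fold lower in cKO without overlap (log2 fold change −0.74, SE 0.0493, adjusted p = 2.87e-06). Slc38a1 (96571418 to 96642913, minus strand) held 463, 480.5 and 447.6 CPM in cKO and 447.0, 445 and 438 CPM in control libraries. The groups were split by a narrow gap, and the log2 fold change of 0.06 (95% interval −0.04 to 0.17, adjusted p = 0.299) did not pass the test. On the log2 scale of the CPM, Slc38a1 over Slc38a2 differed by 0.80 between cKO and control (exact p = 0.1).

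**Figure D2:**
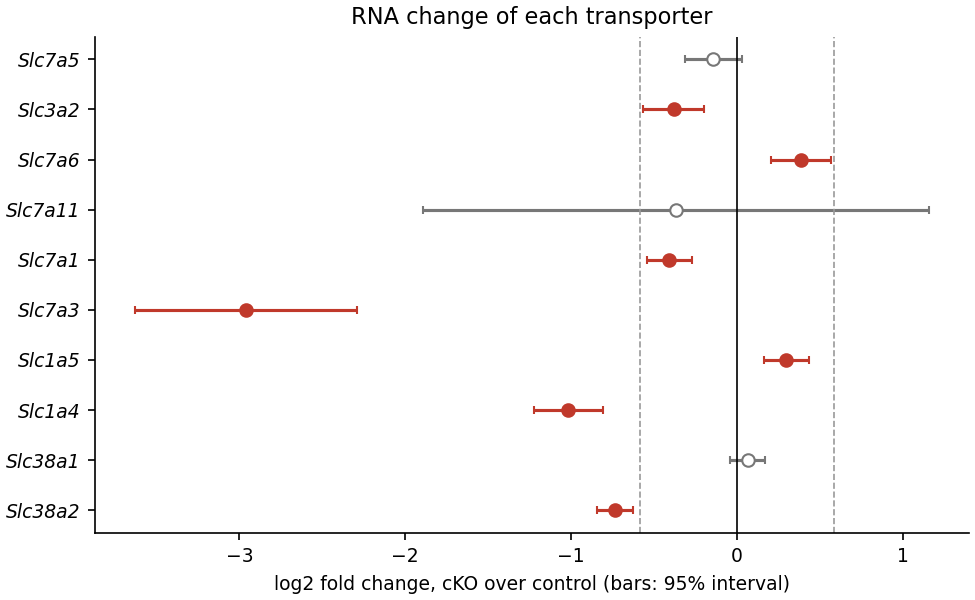
Log2 fold change of each transporter, cKO over control, with its 95% interval. Filled red points have an adjusted p under 0.05, open points do not, and dashed lines mark 1.5-fold. Slc7a3, Slc1a4 and Slc38a2 lie left of the lower dashed line.

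Compared per length, in TPM (counts divided by transcript length and scaled to the same sum in every library), the order of the carriers differed between the groups. In control iGCBs Slc38a2 led with 255 TPM, followed by Slc1a5 (225 TPM), Slc3a2 (200.1 TPM), Slc7a5 (158 TPM), Slc38a1 (145 TPM), Slc7a1 (86.0 TPM), Slc7a6 (30.5 TPM), Slc1a4 (12.4 TPM), Slc7a3 (7.95 TPM) and Slc7a11 (0.0898 TPM). Of these neighbours, only Slc1a5 and Slc3a2 overlapped between libraries. In cKO iGCBs Slc1a5 led alone with 273 TPM, ahead of Slc3a2 (153 TPM), Slc38a1 (152 TPM), Slc38a2 (151 TPM) and Slc7a5 (141 TPM), each of which overlapped the next. Slc7a1 (64.0 TPM), Slc7a6 (39.2 TPM), Slc1a4 (6.06 TPM), Slc7a3 (0.971 TPM) and Slc7a11 (0.0674 TPM) followed in the same order as in control. The 10 carriers summed to 980 ± 49.0 TPM in cKO and 1120 ± 9.95 TPM in control iGCBs (SD, n = 3 each).

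**Figure D3:**
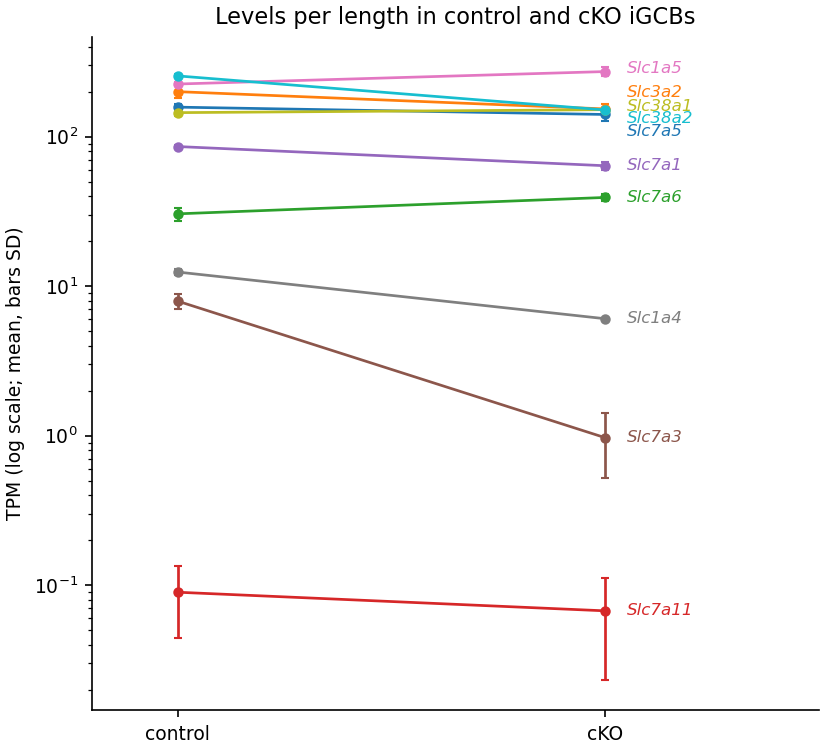
TPM of each transporter on a log scale in control and cKO iGCBs, as the mean of 3 libraries with SD bars. Slc38a2 goes from the top in control to a level that overlaps Slc3a2, Slc38a1 and Slc7a5 in cKO, while Slc1a5 leads in cKO.

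Although the total of Slc38a1 did not pass the test, 2 of its transcripts did. The table held 3 Slc38a1 transcripts with the same coding stretch of 1455 bases and different first exons. Slc38a1-202, with the first exon from 96642128 to 96642250, held 59.3, 63.5 and 59.9% of the counts of Slc38a1 in cKO and 35.9, 44.0 and 44.4% in control libraries. Slc38a1-201, with the first exon from 96642491 to 96642913, held 29.4, 27.2 and 28.9% in cKO and 52.6, 44.7 and 48.6% in control libraries. The first thus took a larger share and the second a smaller one in every cKO library, while Slc38a1-203 took 10.6 ± 1.15% and 9.95 ± 2.54% (SD, n = 3 each) with overlap. Each of the 2 shares had an exact p of 0.1.

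In edgeR's test of each transcript, Slc38a1-202 rose by 0.62 (SE 0.0941, adjusted p = 0.00658) and Slc38a1-201 fell by 0.71 (SE 0.0688, adjusted p = 0.00172) on the log2 scale, beside 13.1% of all tested transcripts called. The call of Slc38a1-202, the 1 member transcript called higher, was lost without cKO replicate 2 or without control replicate 1, where the count was 0. A test of transcript use within the gene gave an adjusted p of 0.00293 for Slc38a1, 0.0125 for Slc7a3 and 0.700 for Slc3a2, beside 3.28% of 2990 genes under 0.05. Without cKO replicate 2, that of Slc7a3 was 0.0551. With the replicate number as a block, the adjusted p was 0.0687 for Slc38a1 and 0.0836 for Slc7a3. On simulated data this test made more false calls than its threshold allows, so these p-values are less firm than those of the gene totals. In Slc7a3, 1 transcript, Slc7a3-201, had 0 counts in each of the 3 cKO libraries against 389, 182 and 134 counts in control, and the other, Slc7a3-202, had 27, 52 and 69 against 23, 187 and 184. StringTie assigns reads of shared exons to transcripts by estimation, so these splits are less certain than the gene totals.

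**Figure D4:**
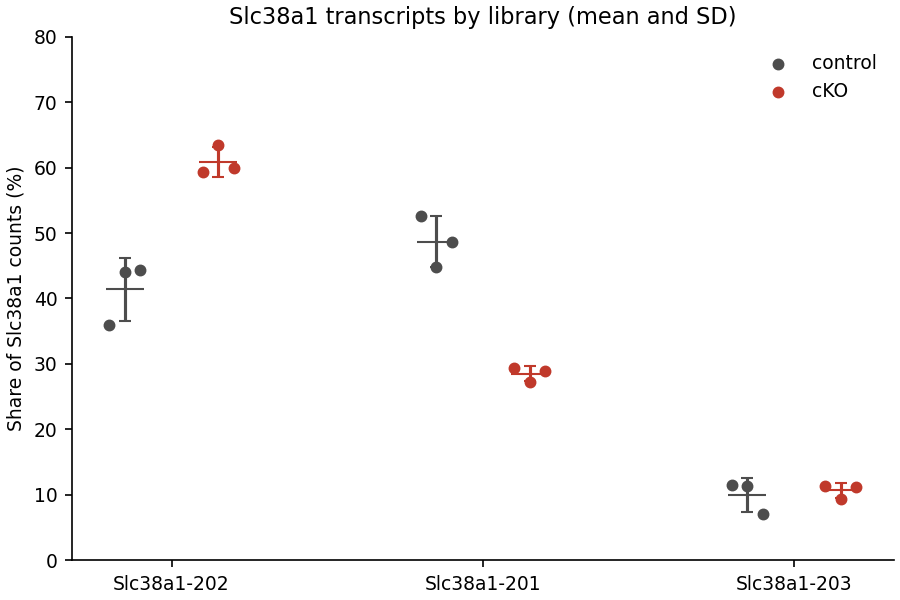
Share of Slc38a1 counts in each transcript, in percent, 1 point per library, with the group mean and SD. Slc38a1-202 holds 59.3 to 63.5% in cKO and 35.9 to 44.4% in control libraries, and Slc38a1-201 goes the other way.

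In the lists that follow, counts by the test stand beside 24.1% higher and 24.5% lower of all tested genes, and counts that also pass the fold cutoff beside 10.4% and 10.6%. Of 30 other listed amino acid carriers of the plasma membrane, 11 passed the filter on low counts. Of these, 3 were higher and 2 lower by the test, and 1 and 2 of them passed the fold cutoff too (median log2 fold change 0.39). Slc6a6 rose from 149 ± 6.75 CPM in control to 209 ± 14.3 CPM in cKO, and Slc43a2 from 75.4 ± 1.62 to 98.7 ± 4.67 CPM. Slc7a2, the 1 called higher, had only 0.256 ± 0.223 CPM in control and 0.944 ± 0.119 CPM in cKO (adjusted p = 0.0318). Slc6a9, the glycine carrier, fell from 15.8 ± 1.85 CPM in control to 2.31 ± 0.789 CPM in cKO (log2 fold change −2.77, adjusted p = 9.1e-06). Slc7a7, the light chain closest in role to Slc7a6, fell by 0.78 on the log2 scale (adjusted p = 0.0184), while Slc7a6 rose. Slc7a7 had 4.20 ± 1.24 CPM against 7.20 ± 1.27 CPM (SD, n = 3 each).

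Of 8 tested carriers of the lysosome, 4 were lower and 1 was higher, with a median log2 fold change of −0.52. The 3 called were the cystine exporter Ctns (9.31 ± 1.91 against 14.9 ± 1.10 CPM), Slc36a1 (12.8 ± 2.34 against 20.02 ± 1.18 CPM) and Slc38a9, the arginine sensor of the lysosome (25.4 ± 3.63 against 38.3 ± 4.37 CPM), all lower in cKO. Of 11 mitochondrial carriers, 3 were higher and 3 lower (median −0.08). The glutamate carrier Slc25a22 rose by a log2 fold change of 1.08 and the ornithine carrier Slc25a15 by 0.81, and the serine carrier Sfxn3 fell by 0.83.

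Of 17 regulators and targets of the amino acid response, 8 were lower and 3 higher, and 7 and 1 of them passed the fold cutoff too (median −0.14). Asns, asparagine synthetase, stood at 19.4, 22.8 and 15.6 CPM in cKO and 112, 108 and 116 CPM in control libraries, a log2 fold change of −2.54. Trib3, an inhibitor of ATF4, fell by 4.02 on the log2 scale. Chac1, which breaks down glutathione, fell by 3.13 and Ddit3, which encodes CHOP, fell by 1.84. The 1 gene called higher, Atf5, which encodes a relative of ATF4, rose from 39.4 ± 1.43 to 107 ± 2.25 CPM (SD, n = 3 each), with a log2 fold change of 1.44 (adjusted p = 3.42e-07). Atf4 itself stood at 648 ± 18.5 CPM against 599 ± 34.7 CPM in control (SD, n = 3 each), and its log2 fold change was 0.11 (adjusted p = 0.105). Nfe2l2, which encodes NRF2, fell by 0.82 on the log2 scale (adjusted p = 0.00019), and Myc had a log2 fold change of 0.03 (adjusted p = 0.870).

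Of 12 glutamine, glutamate and aspartate enzymes, 2 were higher and 5 lower (median −0.25). Glul, glutamine synthetase, rose by a log2 fold change of 0.62, and the proline synthesis enzymes Pycr1 and Aldh18a1 fell by 1.45 and 0.86. Of 12 tested cysteine and glutathione enzymes, 1 was higher and 4 were lower (median 0.05). Cth, which makes cysteine, fell by 2.26 and Gclm, a subunit of the first enzyme of glutathione synthesis, rose by 0.81.

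Of 11 tested arginine and polyamine enzymes, 6 were higher and 2 lower (median 0.24). Srm, spermidine synthase, rose from 49.4 ± 7.86 to 192 ± 20.1 CPM, with a log2 fold change of 1.95, and Ass1, which makes the precursor of arginine, rose by 1.27. Sat1 and Oaz2, which act against polyamines, fell by 0.83 and 0.70. Of 8 branched-chain amino acid enzymes, 1 was higher and 3 were lower (median −0.02). The aminotransferase Bcat1 fell by 1.25, and Bckdhb, a subunit of the complex that acts next, rose by 0.75.

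Of 24 genes of the growth kinase mTORC1 and of the sensing of amino acids for it, 5 were higher and 11 lower. Of them, 3 and 4 passed the fold cutoff too (median −0.21). Mtor and Rptor, parts of mTORC1 itself, rose by 0.60 and 0.50 on the log2 scale. The Rag GTPase gene Rragd fell by 1.47, the leucine sensor gene Sesn1 by 1.04 and Fnip1, a partner of folliculin, by 0.87, and Rragb rose by 0.82 on the log2 scale. Counted once each, 110 genes of these lists were tested, of which 12 (10.9%) were called higher and 22 (20%) lower, beside 10.4% and 10.6% of all tested genes. With the summed feeder marker level as a covariate, 3 transporters were called lower and 0 higher. The log2 fold change was then −2.97 for Slc7a3, −1.03 for Slc1a4 and −0.74 for Slc38a2. That sum hardly differed between groups (ratio of means, cKO over control, 1.03), so as a covariate it could shift these values little. It also pooled Fn1, Col5a1 and Fbn1, which were higher in cKO, with markers that were not called. The part of feeder RNA, and of the T cell and myeloid markers, in the results was not tested.

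**Figure D5:**
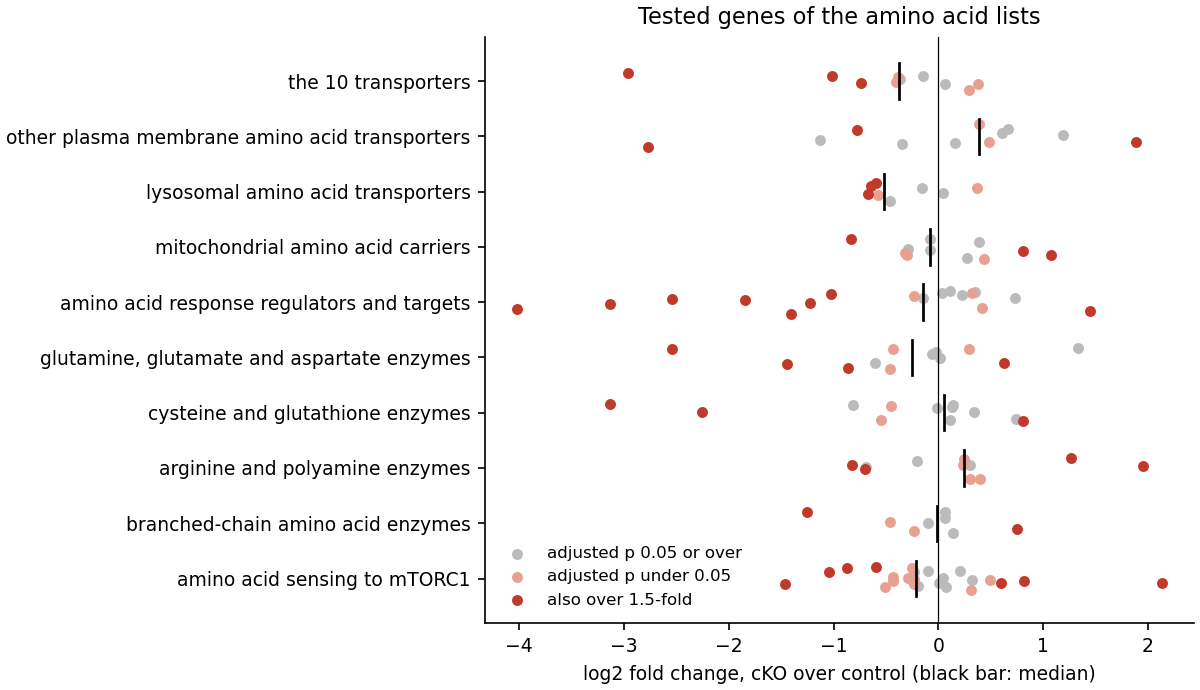
Log2 fold change, cKO over control, of each tested gene of the amino acid lists, 1 point per gene, with the median of each list as a black bar. Dark red points passed the test and 1.5-fold, pale red points passed the test only, and the leftmost point is Trib3 of the amino acid response list.

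The tested genes outside the list whose log2 CPM followed the mean log2 CPM of the 10 transporters most closely over the 6 libraries were Trmt44 (Pearson r = 0.998), Bri3 (0.995), 2700099C18Rik (0.995), Srpr (0.993) and Spag5 (0.993). The libraries share their group, so any gene that differs between groups in the same sense scores high, and these values are a description.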

How the data were processed

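RNA-seq of poly(A) RNA from sorted YFP+ day 3 iGCBs was analysed for 3 cKO and 3 control mice, grouped by their labels. The authors aligned trimmed reads by HISAT2, ran StringTie and its prepDE script, and deposited estimated counts for genes and transcripts. Per the labels the build was mm10. Versions, annotation, read length setting and strand setting are not given in the sources used here. The estimated counts are not normalized and are whole, so rounding changed nothing.

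The main tests used edgeR 4.0.16 under R 4.3.3: filterByExpr with a minimum count of 10, TMM, and the quasi-likelihood test without covariates, over all genes, with Benjamini-Hochberg adjustment. DESeq2 1.42.0, the study's tool, was an alternative. Transcript use was tested with diffSpliceDGE, which on simulated data made a larger share of false calls than its threshold allows. TPM came from transcript counts over RefSeq lengths, for 34148 of 36026 transcripts. Locations are from GENCODE M21 and promoters from RefSeq, GRCm38.p6. Promoter entries covered 6 members. The floor of 3 counts covers counting error only.

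The transporters and gene lists were chosen with earlier results of these data known. Genes named from a list are up to 4 past both cutoffs with the largest change and at least 1 CPM on average, plus Atf4, Ddit3, Trib3, Asns, Nfe2l2, Myc and Eif3e. Gcsam, Mef2b, Jchain, Prdm1, Xbp1, Sdc1, Cd28, Adgre1, Fn1, Col5a1, Fbn1, Lum, Postn, Cd3e, Cd14, Atf3, Atf5 and Nupr1 fall outside this rule and were named after their values were seen. The same holds for Fas, S1pr2, Slc6a6, Slc43a2, Slc7a2, Mtor and Rptor. One marker is not reported here. Alternatives were other scalings and filters, counts divided by 2, immunoglobulin genes left out, a test against 1.5-fold, the Xist level as a covariate, a replicate block and each library left out. The feeder marker level as a covariate was added after the data were seen.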

Additional observations from a re-analysis of the deposited data

How the results depend on the processing

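The members called stayed at 3 lower and 0 higher in every alternative run, a test against 1.5-fold included, and the members passing the test alone stayed at 2 higher and 5 lower, except that 6 were lower without cKO replicate 2. The exception was Slc7a5, at −0.24 with an adjusted p of 0.0158. The log2 fold change of Slc7a11 changed sign, to 0.0570, without control replicate 2 and ran down to −1.03 without cKO replicate 2, at 24 counts or fewer in every library. Without the fold cutoff, 25 genes of the amino acid lists were higher and 38 lower, in place of 12 and 22. The replicate numbers showed little sign of pairing: deviations of same-numbered libraries correlated at 0.00851, 0.0839 and 0.133, and only number 3 correlated best with its own. The labels do not say whether same-numbered libraries were prepared together, so pairing remains unknown. With the replicate block, members with a change in transcript use went from 2 to 0 (adjusted p = 0.0836 for Slc7a3 and 0.0687 for Slc38a1), member transcripts called lower went from 4 to 3, and no member gene gained or lost a call. With each library left out in turn, members with a change in transcript use ranged from 1 to 2, and member transcripts called higher from 0 to 1. Over all alternatives the log2 fold change ran from −3.32 to −2.65 for Slc7a3, from −1.05 to −0.99 for Slc1a4 and from −0.77 to −0.71 for Slc38a2. With 3 mice a group, an exact permutation test cannot go below 0.1, and RNA levels say nothing of carrier protein or transport.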
